A study of Arabidopsis thaliana with 6 samples.

Results

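The genes described here are 5 members of the WRKY family of transcription factors of Arabidopsis thaliana, namely WRKY53, WRKY40, WRKY33, WRKY70 and WRKY11. They were picked by gene symbol from the probe sets that the authors list as changed between the genotypes, so the difference between the genotypes itself chose them. Together they are 5 of the 11 WRKY genes in the authors' tables and 5 of the 22810 probe sets on the array. The RefSeq gene table lists 67 genes under a WRKY symbol, and those outside the authors' tables were not analysed here.

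The series compared plants that overexpress ANAC069, a NAC-domain transcription factor (OE, line OE-3), with plants of the insertion line SALK_095231C in which ANAC069 is knocked out (KO, line KO-2). Every plant of both genotypes was 4 weeks old and had been exposed to 200 mM NaCl for 3 h before RNA was taken. Each genotype is 1 line measured on 3 ATH1 arrays, which the design text calls independent biological replicates. The ANAC069 signal averaged 2579 ± 357 in OE and 380 ± 14.4 in KO (SD, n = 3 each), with every OE array above every KO array. It was not absent from the plants labelled KO, where all 3 arrays lay above the array medians of 150 to 186 signal units over all 22810 probe sets. Since no source used here places this probe set against the insertion, its KO signal does not check the knockout. Neither the promoter that drives ANAC069 in OE nor the part of the plant harvested is given in the sources used here. Wild-type plants and plants without salt were not analysed here, so every comparison below is between the genotypes under salt.

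WRKY factors are plant transcription factors that bind W-box elements in promoters through a conserved WRKY domain with a zinc finger. Many WRKY genes are switched on within minutes to hours by pathogen-derived molecules such as chitin, by wounding and by salt or osmotic stress, and WRKY factors act on their own promoters and on each other's. Receptors at the cell surface, mitogen-activated protein (MAP) kinase cascades and hormones such as salicylic acid and jasmonate lie upstream of them.

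All 5 members had higher signals in OE than in KO plants, by 2.77-fold to 9.76-fold. The members fell into a pair of size classes. WRKY53, WRKY40 and WRKY33 were 7.34-fold to 9.76-fold higher, and WRKY70 and WRKY11 were 2.98-fold and 2.77-fold higher. These values come from the contrast that chose the genes, so they are given as a description and without a test. Signals are the authors' MAS5 values on a linear scale. A difference is that of log2(signal + 16), OE minus KO, with the standard error (SE) from a limma fit over all tested probe sets. In tissue RNA, fewer cells of a type and less RNA per cell cannot be told apart.

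WRKY53 (AT4G23810) encodes a factor that promotes leaf senescence and takes part in basal defence. Its probe set 254231_at is placed by the authors' tables at 12392665 to 12393739 of chromosome 4, minus strand, with no genome build named. Signals were 1363, 2837 and 2330 on OE replicates 1, 2 and 3, against 158, 198 and 250 on KO replicates 1, 2 and 3. The groups did not overlap, and the lowest OE array was 5.45 times the highest KO array, the widest gap of the 5 members. The mean was 2177 ± 749 in OE and 202 ± 46.1 in KO (SD, n = 3 each), a log2 difference of 3.29 (SE 0.27).

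WRKY40 (AT1G80840) encodes a factor that, with its close relatives, represses defence and abscisic acid response genes. Its probe set 261892_at is placed at 30383833 to 30385356 of chromosome 1, plus strand. Signals were 2094, 2881 and 4778 on OE replicates 1, 2 and 3, against 146, 476 and 382 on KO replicates 1, 2 and 3. WRKY40 had the most uneven arrays of the 5 members, with coefficients of variation of 42.4% in OE and 50.8% in KO. The groups still did not overlap, and the lowest OE array was 4.40 times the highest KO array. The mean was 3251 ± 1380 in OE and 335 ± 170 in KO (SD, n = 3 each), a log2 difference of 3.28 (SE 0.43).

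WRKY33 (AT2G38470) encodes a substrate of MAP kinases that is required for resistance to necrotrophic fungi and has been linked to salt tolerance. Its probe set 267028_at is placed at 16108496 to 16110539 of chromosome 2, plus strand. Signals were 3323, 4464 and 4460 on OE replicates 1, 2 and 3, against 381, 828 and 489 on KO replicates 1, 2 and 3. The OE arrays lay close together, the KO arrays were spread by replicate 2, and the groups did not overlap. The mean was 4082 ± 658 in OE and 566 ± 233 in KO (SD, n = 3 each), a log2 difference of 2.88 (SE 0.26).

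WRKY70 (AT3G56400) encodes a factor at the junction of salicylic acid and jasmonate responses. Its probe set 251705_at is placed at 20909081 to 20910409 of chromosome 3, minus strand. Signals were 3523, 5202 and 6008 on OE replicates 1, 2 and 3, against 1277, 1352 and 2361 on KO replicates 1, 2 and 3. The groups came closest here, with the lowest OE array 1.49 times the highest KO array. The mean was 4911 ± 1268 in OE and 1664 ± 605 in KO (SD, n = 3 each), a log2 difference of 1.57 (SE 0.27).

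WRKY11 (AT4G31550) encodes a calmodulin-binding factor that limits basal resistance to bacteria. Its probe set 253535_at is placed at 15290064 to 15291458 of chromosome 4, minus strand. Signals were 1868, 2273 and 2159 on OE replicates 1, 2 and 3, against 675, 674 and 910 on KO replicates 1, 2 and 3. Arrays of 1 genotype agreed best for this gene, with coefficients of variation of 9.95% in OE and 18.1% in KO, and the groups did not overlap. The mean was 2100 ± 209 in OE and 753 ± 136 in KO (SD, n = 3 each), a log2 difference of 1.47 (SE 0.16).

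**Figure D1:**
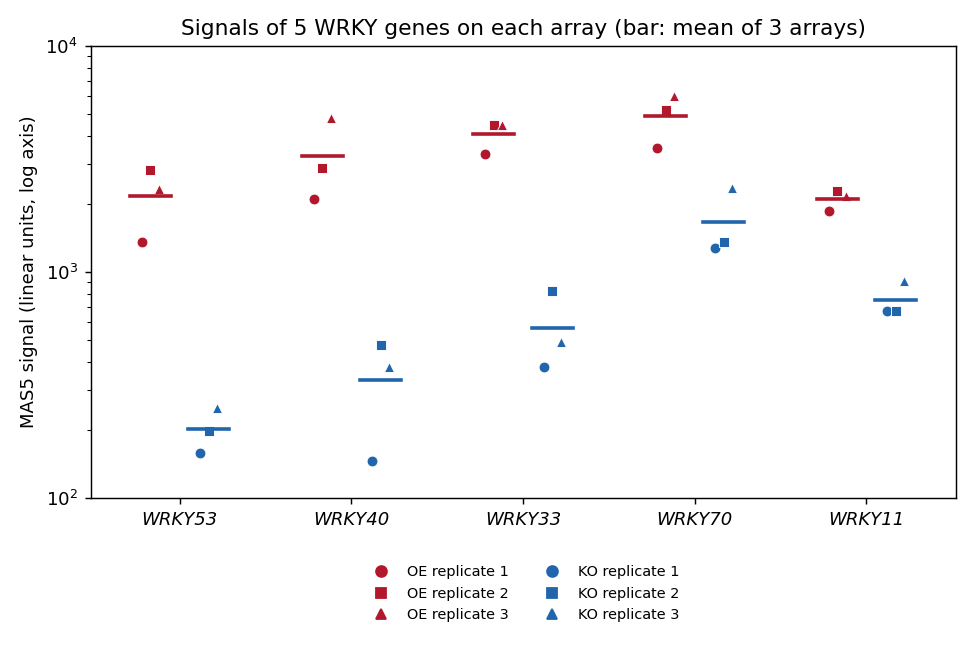
MAS5 signal (linear units on a log axis) of the 5 WRKY genes on each array, OE in red left of KO in blue, with a marker shape per replicate number and a bar at the mean of 3 arrays. Every OE array lies above every KO array of the same gene, and the gap is widest for WRKY53 (5.45 times) and narrowest for WRKY70 (1.49 times).

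For each of the 5 members every OE array was above every KO array, which was the case for 12.9% of all probe sets tested. limma called 5 of the 5 higher in OE at an adjusted p under 0.05, against 3.03% of all probe sets tested. It called 287 of the 341 probe sets of the authors' up table higher. The authors' limits, as recomputed here, admit 481 probe sets as higher in OE (2.11% of all), more than the 341 of their up table. These limits alone thus do not give that table. All 5 members meet them and were picked from that table. Nothing is therefore read from these counts. The median log2 difference was 2.88 over the 5 members, 1.33 over the 341 probe sets of the authors' up table and -0.08 over all 15922 tested. In the authors' deposited table the member with the smallest fold was WRKY11 (2.81-fold) and the one with the largest p was WRKY70 (0.0122). The smallest fold in their up table was 2.004, and the probe set just outside that limit, which has no gene name here, had a recomputed fold of 1.998.

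The size of the difference depended on single arrays more for WRKY40 than for WRKY11. With each array left out in turn, the log2 difference lay between 2.80 and 3.60 for WRKY40 and between 1.40 and 1.61 for WRKY11. It lay between 3.07 and 3.59 for WRKY53, between 2.64 and 3.18 for WRKY33 and between 1.41 and 1.85 for WRKY70. limma called 3 members without OE replicate 2, when WRKY40 and WRKY70 were not called. It called 4 without OE replicate 3 and 4 without KO replicate 2, and WRKY70 was the member not called in both cases. All 5 were called without OE replicate 1, KO replicate 1 or KO replicate 3.

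Some 3' to 5' ratios of control probe sets, for which a higher value is a sign of poorer RNA, were higher in OE. The ratio of 3' to 5' signal of actin, GAPDH and ubiquitin control probe sets was higher on every OE array than on every KO array for 3 of 6 controls (two-sided exact permutation p = 0.1, below which 3 arrays against 3 cannot go, and adjusted p = 0.2 over the 6). The mean log2 ratio was 1.88 ± 0.13 in OE and 1.63 ± 0.14 in KO (SD, n = 3 each), and KO replicate 1 at 1.80 was above OE replicate 3 at 1.73. With this mean ratio as a covariate the log2 differences were 3.72 (SE 0.38) for WRKY53, 4.56 (SE 0.28) for WRKY40, 3.34 (SE 0.35) for WRKY33, 2.16 (SE 0.32) for WRKY70 and 1.66 (SE 0.24) for WRKY11. Each was larger than without the covariate, and limma called all 5. Since the mean ratio was itself higher on average in OE, this fit cannot fully tell its part from that of genotype.

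**Figure D2:**
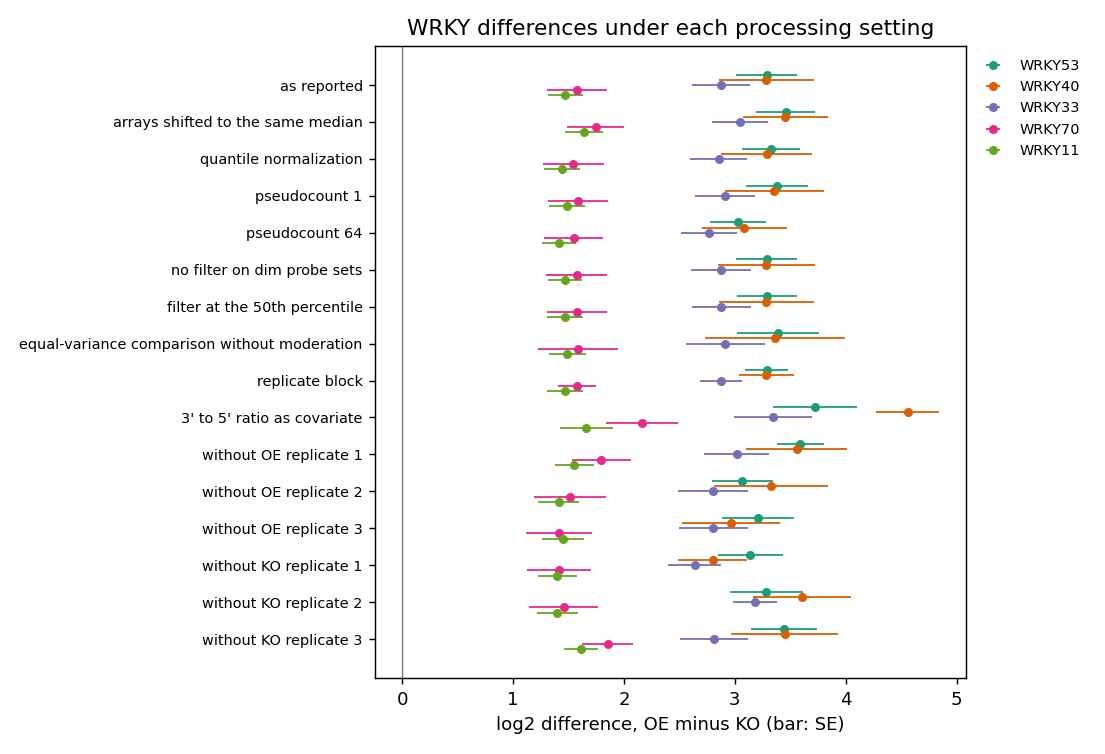
Log2 difference of each WRKY gene, OE minus KO, under the reported setting (top) and each alternative, with bars for the SE. All values are positive, WRKY70 and WRKY11 stay below the other members in every row, and WRKY40 reaches 4.56 with the 3' to 5' ratio as a covariate.

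Within OE the 5 members shared their lowest array. OE replicate 1 had the lowest signal of the OE arrays for 5 of 5 members, with deviations from the OE mean from -0.61 for WRKY53 to -0.16 for WRKY11 on the log2 scale. Among all tested probe sets 33.0% were lowest on OE replicate 1, and 55.7% of those in the authors' list of higher probe sets were. ANAC069 itself ran the other way, with signals of 2991, 2386 and 2360 on OE replicates 1, 2 and 3, against 386, 364 and 391 on KO replicates 1, 2 and 3. The OE array with the highest ANAC069 signal was thus the one with the lowest signal of each of the 5 WRKY genes. It also had the highest mean log2 3' to 5' ratio of the OE arrays, with 1.97, 1.94 and 1.73 on OE replicates 1, 2 and 3. Whether the lower WRKY signals go with either was not tested.

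On the KO side, replicate 1 was lowest for 4 of 5 members, and for WRKY11 replicates 1 and 2 were within 1 signal unit of each other. Of all tested probe sets 39.3% were lowest on KO replicate 1, and 54.8% of those the authors listed as up were. KO replicate 1 had the highest mean log2 3' to 5' ratio of the KO arrays, with 1.80, 1.57 and 1.53 on KO replicates 1, 2 and 3. The highest KO array split the members. WRKY40 and WRKY33 peaked on KO replicate 2, at 0.64 and 0.61 above the KO mean on the log2 scale. WRKY53, WRKY70 and WRKY11 peaked on KO replicate 3, at 0.31, 0.56 and 0.28 above it. Of all tested probe sets 31.1% were highest on KO replicate 2 and 34.8% on KO replicate 3. Deviations from a genotype mean do not use the difference between genotypes, but with 3 arrays each they are a description only.

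**Figure D3:**
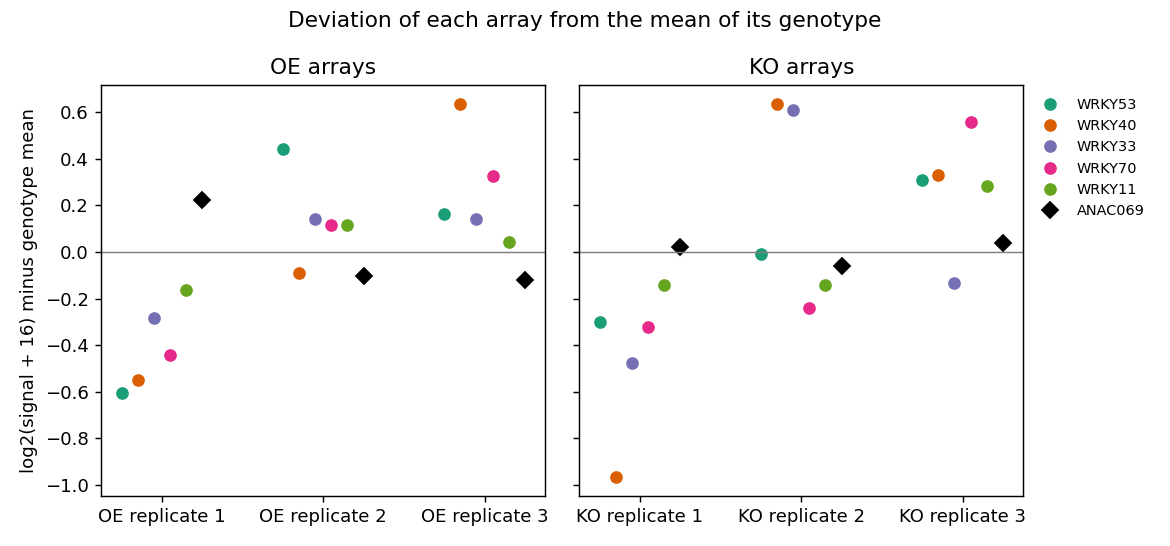
Deviation of log2(signal + 16) from the mean of the 3 arrays of the same genotype, for OE arrays (left) and KO arrays (right), with 1 colour per WRKY gene and black diamonds for ANAC069. All 5 WRKY genes lie below 0 on OE replicate 1, where ANAC069 lies above it, and WRKY40 has the largest deviation on KO replicate 1 (-0.97).

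The other 6 WRKY genes of the authors' tables were listed from the same contrast, 5 as up and 1 as down. WRKY54 (AT2G40750), the closest relative of WRKY70 in sequence, had signals of 853, 1003 and 2592 on OE replicates 1, 2 and 3, against 122, 164 and 603 on KO replicates 1, 2 and 3. Both replicates 3 were high for this gene, the groups did not overlap, and the lowest OE array was 1.41 times the highest KO array. Its log2 difference was 2.41 (SE 0.58), and it ranged from 1.92 without OE replicate 3 to 3.07 without KO replicate 3. WRKY70 was also highest on OE replicate 3 and KO replicate 3.

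WRKY15 (AT2G23320) is a calmodulin-binding factor of the same subgroup as WRKY11 and has been linked to salt and oxidative stress. Its signals were 1064, 1205 and 1300 on OE replicates 1, 2 and 3, against 333, 536 and 428 on KO replicates 1, 2 and 3, without overlap. Its log2 difference of 1.45 (SE 0.18) was within 1 SE of that of WRKY11. WRKY26 (AT5G07100) is of the same subgroup as WRKY33 and acts with it in heat tolerance. Its signals were 862, 666 and 455 on OE replicates 1, 2 and 3, against 286, 313 and 253 on KO replicates 1, 2 and 3. They did not overlap, and the log2 difference was 1.13 (SE 0.23), below that of WRKY33.

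WRKY22 (AT4G01250) acts downstream of the flagellin receptor and its MAP kinase cascade. Signals were 583, 252 and 462 on OE replicates 1, 2 and 3, against 109, 152 and 182 on KO replicates 1, 2 and 3, a log2 difference of 1.40 (SE 0.30). WRKY45 (AT3G01970), linked to phosphate uptake and senescence, had 253, 152 and 227 on OE replicates 1, 2 and 3, against 58.2, 63.7 and 130 on KO replicates 1, 2 and 3, a log2 difference of 1.22 (SE 0.30). For both genes the groups did not overlap, OE replicate 1 was the highest OE array and OE replicate 2 the lowest, unlike the 5 members. The gap was small for WRKY45, whose lowest OE array was 1.17 times the highest KO array.

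WRKY13 (AT4G39410), a factor of stem and lignin development, was the lone WRKY gene listed as down. Its signals were below the median of every array, at 34.8, 44.4 and 21.5 on OE replicates 1, 2 and 3, against 61.6, 72.7 and 73.9 on KO replicates 1, 2 and 3. The groups did not overlap, which held in this direction for 18.3% of all probe sets tested. The log2 difference was -0.81 (SE 0.29), a change that the added 16 understates at such low signals. Of these 6 genes limma called WRKY15, WRKY22 and WRKY26 higher and none lower, and did not call WRKY54, WRKY45 or WRKY13. Among all probe sets tested 3.03% were called higher and 1.84% lower, and the gap between the genotypes had already chosen these genes. The calls depended on single arrays, as did the number called over all probe sets. WRKY22 lost its call when any one array other than OE replicate 2 was left out, and it was the only one of the 6 called without OE replicate 2. WRKY26 was not called without OE replicate 2, KO replicate 2 or KO replicate 3, and WRKY15 was not called without OE replicate 2. WRKY54 was called without OE replicate 1 or KO replicate 3, and WRKY45 without KO replicate 3.

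**Figure D4:**
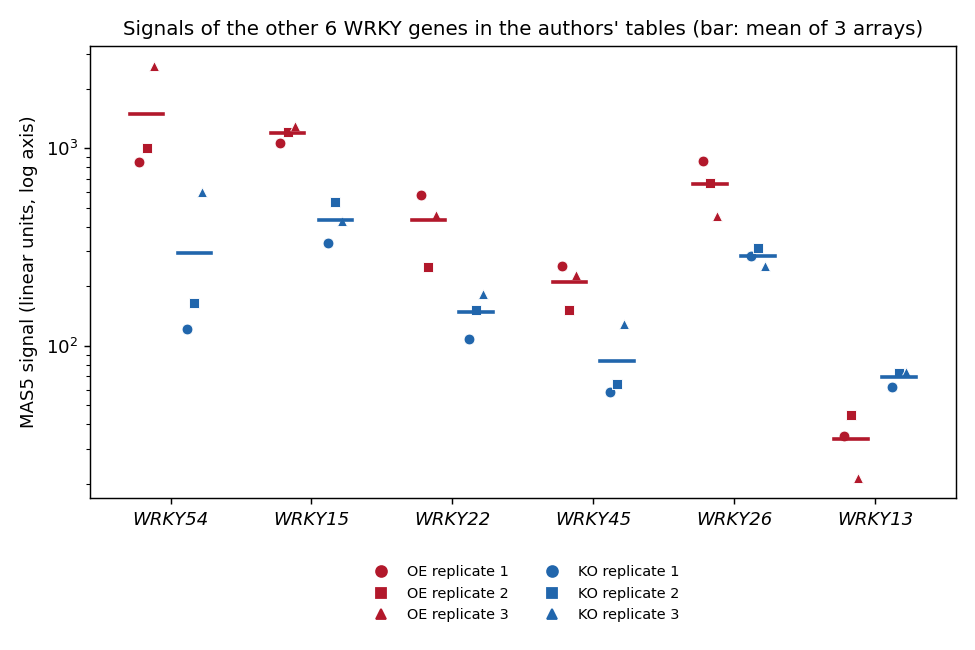
MAS5 signal (linear units on a log axis) of the other 6 WRKY genes in the authors' tables on each array, OE in red left of KO in blue, with a bar at the mean of 3 arrays. WRKY13 alone lies lower in OE, at 33.6 against 69.4 on average, and both replicates 3 stand above the other arrays of their genotype for WRKY54.

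The annotation in the authors' tables, which played no part in choosing the members beyond their names, places all 5 under the chitin response. Chitin is a sugar polymer of fungal walls. Besides them WRKY15 and WRKY22 carry that term, so 7 of the 11 WRKY genes do, against 43 of 322 named genes in the up table (13.4%) and 1 of 219 in the down table (0.457%). WRKY40, WRKY33, WRKY70 and WRKY11 are annotated to defence against bacteria, and WRKY40, WRKY33 and WRKY70 to defence against fungi. WRKY33 alone of the 11 carries the terms for salt stress, osmotic stress, water deprivation, heat and cold. WRKY40 alone carries wounding and salicylic acid, and WRKY70 alone jasmonic acid. WRKY53 carries the term for defence against bacteria in an incompatible interaction. Annotation cells in these tables can be cut short, so a missing term is not evidence that a gene lacks the function.

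The members differed in which named genes they resembled across the 6 arrays. Likeness was measured as the root mean square (RMS) difference of log2(signal + 16) after each gene was centred on its own mean, against 535 other named probe sets of the authors' tables. Smaller values mean more alike, and the difference between genotypes dominates the measure. WRKY53 and WRKY33 were 0.42 apart, WRKY40 was 0.42 from WRKY33 and 0.48 from WRKY53, and WRKY70 and WRKY11 were 0.22 apart. Pairs from different size classes were 0.80 to 1.06 apart.

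The 3 genes most like WRKY53 were LYK5, a receptor kinase gene of chitin perception (RMS 0.37), AT5G52050 (0.46) and DREB2A, a dehydration-response factor gene (0.48). Those most like WRKY40 were ORA47, an ERF-family factor gene (0.34), AT5G52050 (0.35) and SZF1, a salt-inducible zinc finger gene (0.37). WRKY33 was closest to AT5G52050 (0.26), HSPRO2, the relative of a beet nematode resistance gene (0.29), and SZF1 (0.32). AT5G52050 therefore appears for each of the 3 members with the larger differences.

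WRKY70 and WRKY11 had closer matches. WRKY70 was nearest to DMR6, an oxygenase gene of downy mildew susceptibility (RMS 0.13), to EDA39, annotated as calmodulin-binding (0.14), and to AT5G18470 (0.14). DMR6 had signals of 3264, 4344 and 5267 on OE replicates 1, 2 and 3, against 1187, 1349 and 2585 on KO replicates 1, 2 and 3, and so shared with WRKY70 the high KO replicate 3. WRKY11 was nearest to AT3G59350 (0.08), to the NAC factor gene NAC102 (0.09) and to RSH2, a GTP diphosphokinase gene (0.12). The median distance over all 535 genes was 0.57 for WRKY70 and 0.51 for WRKY11, against 1.17 for WRKY53, 1.27 for WRKY40 and 0.997 for WRKY33, so distances of different members are not on an equal footing.

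Genes that act with WRKY factors were taken from 5 lists of 59 loci, of which 14 have a named probe set, all in the authors' up table. limma called 13 of the 14 higher and 0 lower, against 3.03% called higher among all probe sets tested. Of the authors' up table, from which all 14 come, it called 287 of 341 probe sets higher. That count was 3 without OE replicate 2, 4 without OE replicate 3 and 8 without KO replicate 2. The naming of the 14 rests on the same selection, so the common direction is not independent evidence. The other 45 loci have no probe set named here. The median log2 difference of the 14 was 1.51.

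Upstream of the WRKY genes, 4 of 16 loci were named. LYK5 (AT2G33580) had signals of 1259, 1632 and 2450 on OE replicates 1, 2 and 3, against 174, 255 and 288 on KO replicates 1, 2 and 3, a log2 difference of 2.79 (SE 0.26). MPK3 (AT3G45640), a MAP kinase that phosphorylates WRKY33, had 5110, 5955 and 5070 on OE replicates 1, 2 and 3, against 2490, 2535 and 2667 on KO replicates 1, 2 and 3, a log2 difference of 1.06 (SE 0.12). The MAP kinase kinase gene MKK9 differed by 1.53 (SE 0.29) and RBOHD, the oxidase gene of the immune oxidative burst, by 1.01 (SE 0.19). LYK5 was thus the upstream gene whose difference came nearest to those of WRKY53, WRKY40 and WRKY33. The groups did not overlap for these 4 genes of the authors' up table, which held in this direction for 12.9% of all probe sets tested.

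Partner proteins gave 2 named genes of 7 loci. MKS1 encodes an MPK4 substrate that binds WRKY33, and its log2 difference was 1.23 (SE 0.21), with means of 689 ± 71.8 in OE and 292 ± 79.7 in KO (SD, n = 3 each). SIB1, which encodes another WRKY33-binding protein, had means of 1695 ± 485 in OE and 618 ± 304 in KO (SD, n = 3 each), a log2 difference of 1.50 (SE 0.33). Like WRKY70 and WRKY54, SIB1 was highest on replicate 3 of both genotypes, and so were LYK5, DREB2A and NPR3 among the linked genes. Of all tested probe sets 30.6% were highest on OE replicate 3 and 34.8% on KO replicate 3. The share highest on both was not computed, so nothing is read from the shared array.

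Among 14 loci listed as targets of these factors, 3 were named. ACS6, the gene of an ethylene synthesis enzyme controlled by WRKY33, had signals of 1774, 1210 and 2339 on OE replicates 1, 2 and 3, against 258, 691 and 257 on KO replicates 1, 2 and 3. It shared with WRKY33 and WRKY40 the high KO replicate 2, and its log2 difference was 2.20 (SE 0.38). RRTF1, a redox-responsive factor gene bound by WRKY40, had 471, 361 and 585 on OE replicates 1, 2 and 3, against 5.78, 31.9 and 27.7 on KO replicates 1, 2 and 3. The KO signals lie far below the median of the arrays, and the log2 difference of 3.75 (SE 0.33) depends on the number added before taking logs. It was 4.64 with 1 added and 2.64 with 64 added. DREB2A, a factor gene of dehydration and heat responses, differed by 2.50 (SE 0.32).

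The salicylic acid list, in which WRKY70 and WRKY53 act, had 1 named gene of 14 loci, the salicylic acid receptor gene NPR3, which was 2.47-fold higher in OE (SE 0.20 on the log2 scale). Of 8 loci known as early responders to chitin and flagellin, 4 were named. The zinc finger genes SZF1 and SZF2 differed by 3.16 (SE 0.44) and 2.09 (SE 0.31), and the ubiquitin ligase gene PUB22 by 1.29 (SE 0.28). PUB22 was dim, at 25.4, 29.9 and 36.4 on KO replicates 1, 2 and 3. Its log2 difference was 1.65 with 1 added before taking logs and 0.78 with 64 added. CYP81F2, which encodes a cytochrome P450 of indole glucosinolate synthesis, differed by 1.08 (SE 0.31), was not called, and had its lowest OE array at 1.07 times the highest KO array. SZF1 had signals of 219, 937 and 351 on KO replicates 1, 2 and 3, the same order as WRKY40 and WRKY33.

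**Figure D5:**
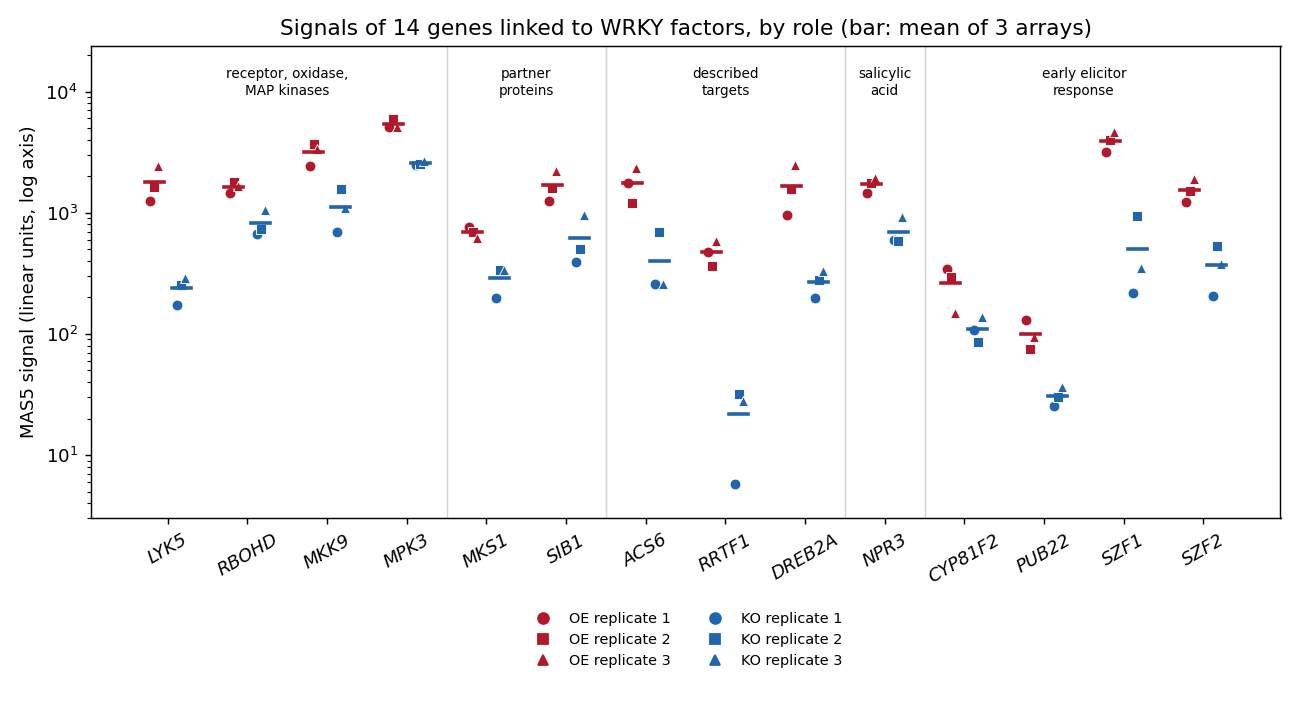
MAS5 signal (linear units on a log axis) of the 14 named genes linked to WRKY factors on each array, grouped by role, OE in red left of KO in blue, with a bar at the mean of 3 arrays. The groups of these genes, chosen by the same contrast, do not overlap, RRTF1 lies between 5.78 and 31.9 on the KO arrays, and CYP81F2 has the smallest gap (1.07 times).

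The identity of the material could not be checked against markers of leaf, root, flower or seed, since none of the 14 marker loci has a probe set named here.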

How the data were processed

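RNA of 6 plant samples was hybridised to ATH1 arrays, 3 for each genotype, and the sample titles gave the group and replicate of each. The authors deposited 1 intensity (MAS5 signal, linear scale) per probe set and array, per the submitters' processing notes, which give no version. The mean signal without the lowest and highest 2% was 500.04 to 500.05 on all 6 arrays, so a signal is relative to the rest of its array. They also deposited tables of 341 probe sets up and 226 down giving each a deposited p-value (all under 0.05) and an absolute fold (all above 2). No source used here says how that p-value was computed, but for the 5 members it matches an unadjusted equal-variance comparison of log2 signals. These tables hold 48 further per-array columns whose names fit no sample label and which were not used.

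Loci came from the identifiers in those tables through RefSeq (TAIR10.1, names only). Of 567 probe sets, 541 carried 1 gene, 21 several, 4 none and 1 an identifier not found. Symbols are those of RefSeq, and SZF2 is listed there as CZF1.

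Log2(signal + 16) was fitted with limma 3.58.1 in R 4.3.3 (lmFit, eBayes with trend), with genotype as the only term. The 64 control probe sets and those with a mean at or below the 30th percentile were left out, which kept 15922. Adjusted p-values are Benjamini-Hochberg, two-sided, with a threshold of 0.05. All 11 WRKY probe sets passed the filter on low values. The number of arrays limits the precision. Control ratios were compared by exact permutation (SciPy 1.17.1). On simulated arrays the fit called 38.8% of 98 probe sets changed 2-fold and 82.3% of 96 changed 4-fold, with 8 false calls among 15922. The noise there was drawn independently for each array.

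Named genes are the 5 members, the other WRKY genes of the tables, ANAC069, the 3 most alike genes per member and the named genes of the 5 lists. The members and lists were chosen with earlier results of these data known, and no p-value computed here is printed for any one of these genes. Counts of limma calls among them, and the authors' own p-values, are given as descriptions. Genes singled out for a shared high array were chosen after their values were seen. Promoter motifs and protein features, which had been planned, were not analysed here.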

Additional observations from a re-analysis of the deposited data

How the results depend on the processing

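All 75 recomputed log2 differences of the 5 members kept their sign, and 72 moved by less than 1 SD between replicates. Those that moved further were WRKY40 (4.56), WRKY33 (3.34) and WRKY70 (2.16) with the 3' to 5' ratio as a covariate. The equal-variance comparison without moderation also had no filter on dim probe sets and no added 16. After adjustment it called 0 of the 5 members, and 1 probe set higher and 0 lower in all. Each member has a p under 0.05 in the authors' deposited table, which matches the p of this comparison before adjustment. limma called 5 members under every other alternative that kept all 6 arrays, and 3 to 5 with 1 array left out.

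As reported, 483 probe sets were called higher and 293 lower. The numbers were 794 and 143 once arrays had equal medians (median log2 difference of all probe sets 0.09, against -0.08, and 84.7% of calls higher, against 62.2%). They were 261 and 76 with no filter on dim probe sets, 238 and 37 with the replicate block, and 189 and 19 with the ratio covariate. With 1 array left out they ranged from 66 to 548 higher and from 7 to 852 lower. Of the 14 linked genes, 13 were called as reported, 8 with the ratio covariate, 0 without moderation, 10 to 14 under the other alternatives with all 6 arrays and 3 to 13 with 1 array left out. Of the other 6 WRKY genes, 3 were called higher as reported, 5 with equal medians, 1 with no filter, 0 without moderation and 1 to 3 with 1 array left out. WRKY22 lost its call with no filter, with the replicate block and with the ratio covariate. WRKY54 gained a call with equal medians, the filter at the 50th percentile, the replicate block and the ratio covariate. WRKY54 differed by 3.98 and RRTF1 by 4.56 with the ratio covariate. The cause of these shifts was not tested.

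Deviations of same-numbered arrays correlated at -0.24, -0.12 and 0.06 over probe sets, and those of different-numbered arrays at -0.21 to 0.27. These values cannot decide whether arrays of the same number were handled as pairs. With the replicate block 5 members were called. The SE was then 0.19 for WRKY53, 0.25 for WRKY40, 0.19 for WRKY33, 0.17 for WRKY70 and 0.16 for WRKY11. All 15 choices of most alike genes were the same with equal medians. That could not be otherwise, since an array's shift is equal for every gene and cancels. It is therefore no check of the choices. The motif alternative was not run. Among dim genes, WRKY13, PUB22 and, in KO, RRTF1 are limited by signal over background.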

Other observations

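WRKY22 and ANAC069 are both on chromosome 4 in the authors' tables, with 149895 bases between the end of the WRKY22 alignment and the start of that of ANAC069. None of the 5 members lies that close to ANAC069: WRKY53 and WRKY11 are on chromosome 4 too, at 12392665 and 15290064, and WRKY40, WRKY33 and WRKY70 are on chromosomes 1, 2 and 3.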
